A study of Arabidopsis thaliana with 12 samples.

Results

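HEMA3 and CHLM are a pair of nuclear genes of *Arabidopsis thaliana* for enzymes of tetrapyrrole synthesis. HEMA3 (AT2G31250) was read from probe 1995, and CHLM (AT4G25080) from probe 2091, the single probe that the platform annotation assigns to CHLM alone. They are 2 of the 691 genes that had a probe to themselves (692 single-gene probes among 3439), and neither was at 0 in any sample. Total RNA was compared between 6 samples of the *psae1* mutant and 6 of the wild type (WT), numbered 1 to 6 in each genotype. All 12 were of the Columbia 0 ecotype, and the labels describe the mutant as devoid of PSI-E1, a subunit of photosystem I encoded by PSAE1. Tissue, plant age, light and the nature of the allele were not given in the sources used here. PSAE1 itself had no single-gene probe, so its level could not be used to check the genotypes.

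Plants make chlorophyll, heme, siroheme and phytochromobilin through a shared tetrapyrrole pathway in the plastid. Glutamyl-tRNA reductase, encoded by the HEMA genes, takes glutamate bound to its tRNA into the pathway at its rate-controlling step, and HEMA1 is the light-regulated gene of green tissue. Far downstream, after magnesium has been placed in protoporphyrin IX, the methyltransferase CHLM transfers a methyl group from S-adenosylmethionine to magnesium protoporphyrin IX, a step on the chlorophyll branch only. HEMA3 therefore stands before all branch points and CHLM after the split between chlorophyll and heme. The comparison asks whether transcripts of HEMA3, a gene for the entry enzyme, and of CHLM differed in level in the photosystem I mutant. It also asks whether they differed alike. HEMA1 had no single-gene probe, so HEMA3 does not stand for the entry step as a whole.

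Summed intensity lay between 3436 and 3564 in *psae1* samples and between 3611 and 3678 in WT samples. Mean intensity lay between 0.999 and 1.07 in all 12 samples, so the deposited values may already have been scaled by the authors. As deposited, the median probe stood at −0.24 (log2, *psae1* minus WT). Values are therefore given both as deposited and as log2 intensity minus the median of the sample, called centred below. Deposited against centred may thus compare scalings, and not raw with scaled values. Of 3279 probes tested on the centred scale, 391 were higher and 357 lower in *psae1* at a limma adjusted p under 0.05. Neighbouring numbers of a genotype (1 with 2, 3 with 4, 5 with 6) departed from the genotype mean in the same way over 3257 probes. The mean r was 0.47 in *psae1* and 0.49 in WT. A limma fit with these pairs as a random block estimated the correlation within them at 0.71. Such pairs may be repeat readings. The p-values over 12 samples are then too small. Calls on the 3 averages of these numbers per genotype are therefore printed beside them. Nothing in the labels says that samples came from separate plants, and the spread behind each p-value may be technical.

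HEMA3 rose in *psae1*, by about 1.51-fold relative to the median probe. Its deposited intensity was 1.40, 1.38, 1.16, 1.20, 1.52 and 1.42 in *psae1* samples 1 to 6, against 1.10, 1.29, 1.02, 1.02, 0.988 and 0.937 in WT samples 1 to 6. As deposited, *psae1* 3 and 4 lay below WT 2, so the genotypes overlapped, while the other 4 *psae1* samples lay above every WT sample. The mean was 1.35 ± 0.140 in *psae1* and 1.06 ± 0.125 in WT (SD, n = 6 each). On the centred scale the *psae1* samples ran from 1.17 to 1.62 and the WT samples from 0.65 to 1.08, with no overlap. Among 3257 probes measured in all samples, 6.75% had all *psae1* values above all WT values. The centred difference, *psae1* minus WT, was 0.60 ± 0.09 on the log2 scale (SE, n = 6 each, limma adjusted p = 0.00068), with a 95% interval of 0.40 to 0.80.

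CHLM had nearly equal deposited levels in both genotypes and passed as higher in the mutant on the centred scale. Its deposited intensity was 0.706, 0.835, 0.766, 0.775, 0.851 and 0.862 in *psae1* samples 1 to 6, against 0.841, 0.865, 0.775, 0.875, 0.703 and 0.728 in WT samples 1 to 6. The genotypes overlapped almost fully, with the lowest of the 12 values in WT 5 and the highest in WT 4. The means were 0.799 ± 0.0603 in *psae1* and 0.798 ± 0.0731 in WT (SD, n = 6 each). After centring, the *psae1* samples ran from 0.43 to 0.80 and the WT samples from 0.22 to 0.50. Only *psae1* 1 then lay within the WT range. The centred difference was 0.25 ± 0.08 (SE, n = 6 each, limma adjusted p = 0.035), or 1.19-fold, with a 95% interval of 0.08 to 0.42.

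**Figure D1:**
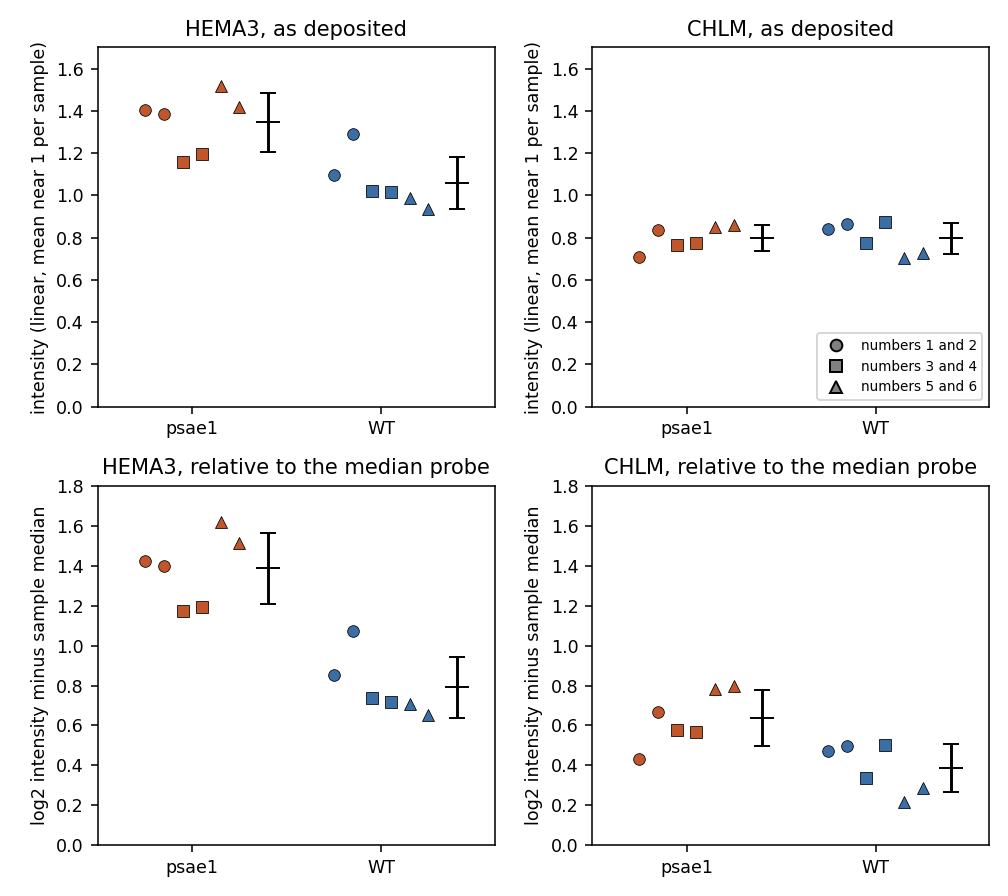
Intensity of the HEMA3 and CHLM probes in each sample, as deposited on a linear axis (top) and as log2 intensity minus the sample median (bottom). Points are samples, with marker shape giving the pair of numbers, and the bars at the right of each group are mean and SD of 6 samples. HEMA3 separates the genotypes once centred (1.17 to 1.62 in *psae1* and 0.65 to 1.08 in WT), whereas the CHLM means as deposited are 0.799 in *psae1* and 0.798 in WT.

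Both genes were thus called higher over the 12 samples, where 11.9% of all tested probes were. HEMA3 was the gene that had been listed among the largest rises of these same values before it was taken up here, so its call is no independent support for its size or direction. Among 653 tested single-gene probes HEMA3 ranked 5 by size of rise and CHLM 73, and among all 3279 they ranked 54 and 486. With the replicate number as a block, which called 14.8% of probes higher, HEMA3 kept its call (limma adjusted p = 0.0022) and CHLM did not (0.063). On 3 averages per genotype, where 1.16% of probes were called higher, neither gene passed. HEMA3 had a limma adjusted p of 0.056 and CHLM of 0.31 there, with 95% intervals of 0.29 to 0.90 and of −0.02 to 0.52. On those averages with the replicate block, which called 4.13% of probes higher, HEMA3 passed (limma adjusted p = 0.024) and CHLM did not (0.27).

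Without the centring HEMA3 also passed over the 12 samples, but not on 3 averages per genotype (limma adjusted p = 0.085). Over the 12 samples it was then higher by 0.35 ± 0.09 on the log2 scale (SE, n = 6 each, limma adjusted p = 0.0054), against 0.60 with centring, in a fit that called 3.39% of probes higher and 49.8% lower. CHLM was at 0.00 ± 0.08 in that fit (limma adjusted p = 0.97), with a 95% interval of −0.16 to 0.17. After quantile and cyclic loess normalization, which called 7.41% and 8.35% of probes higher, HEMA3 was at 0.49 and 0.51 and passed (limma adjusted p = 0.0023 and 0.0019). CHLM was at 0.22 and 0.23 and did not pass (0.071 and 0.061). Each gene was also set beside probes of like level, and other levels are not given here. The HEMA3 probe lay at the 86.6 percentile of level, among 328 probes of like level with a median difference of 0.10, of which 18.9% were called higher. The CHLM probe lay at the 71.7 percentile, among 328 probes with a median of 0.03, of which 13.4% were called higher. The part of brightness in either difference was not tested.

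**Figure D2:**
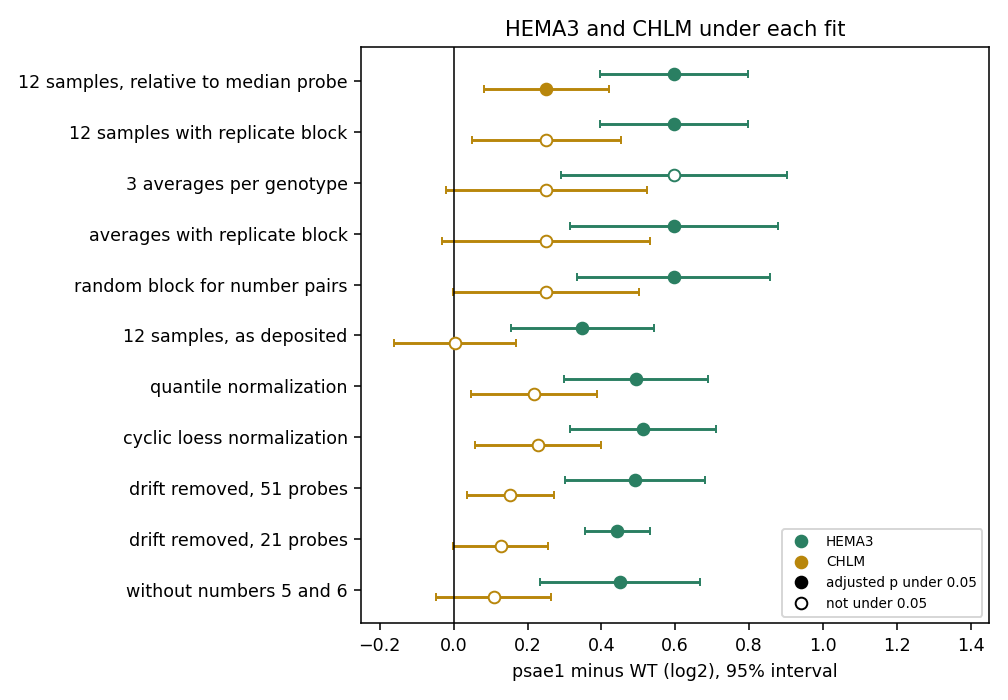
Centred or otherwise scaled difference of HEMA3 and CHLM, *psae1* minus WT on the log2 scale, under 11 fits listed on the vertical axis. Points are estimates, bars 95% intervals of limma, filled points have an adjusted p under 0.05 over all probes. HEMA3 lies between 0.35 and 0.60 and CHLM between 0.00 and 0.25.

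Whether the transcripts changed unequally was tested on the ratio of the HEMA3 to the CHLM intensity within each sample, which any centring of the samples leaves as it is. Probes differ in how brightly they bind, so the size of the ratio says nothing of which transcript is more abundant, and only its change between genotypes is read. The log2 ratio was 0.99, 0.73, 0.60, 0.63, 0.84 and 0.72 in *psae1* samples 1 to 6, against 0.38, 0.58, 0.40, 0.22, 0.49 and 0.36 in WT samples 1 to 6. Every *psae1* sample lay above every WT sample, with *psae1* 3 and WT 2 nearly touching. The mean was 0.75 ± 0.15 in *psae1* and 0.40 ± 0.12 in WT (SD, n = 6 each), a difference of 0.34. The two-sided exact permutation test over 12 samples gave p = 0.0022, the smallest it can give. HEMA3 thus rose more than CHLM. A change unequal between the transcripts does not show that CHLM itself was unchanged, and as HEMA3 had been picked out for its rise, the p-value describes these samples and is no independent evidence.

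With same-numbered samples paired, the ratio was higher in *psae1* in 6 of 6 numbers. An exact sign-flip permutation test gave p = 0.031, the smallest it allows. That test takes the 6 numbers as independent, which neighbouring numbers may not be. Between *psae1* and WT the ratio differed by 0.38 in the mean of numbers 1 and 2, by 0.30 in 3 and 4, and by 0.35 in 5 and 6. On the 3 averages per genotype the exact permutation p was 0.10, the smallest possible with 3 against 3, so that design cannot pass the threshold.

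**Figure D3:**
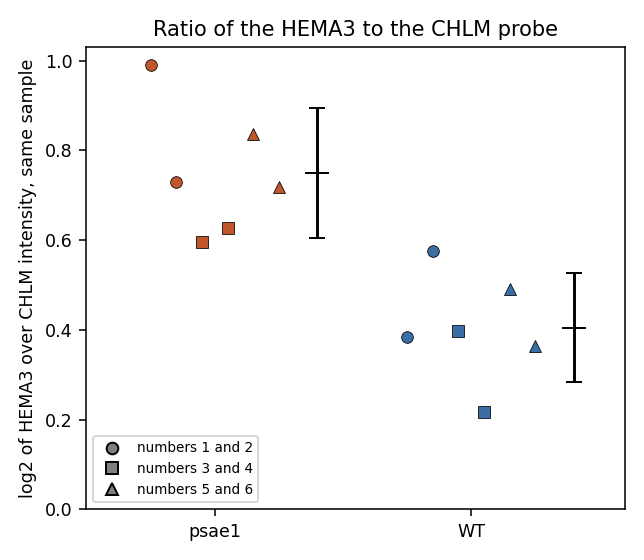
Log2 ratio of HEMA3 to CHLM intensity within each sample, by genotype. Points are samples, with marker shape giving the pair of numbers, and bars are mean and SD of 6 samples (0.75 ± 0.15 in *psae1* and 0.40 ± 0.12 in WT). All 6 *psae1* samples lie above all 6 WT samples.

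By number, the rise of HEMA3 was unequal. The centred difference between same-numbered samples, *psae1* minus WT, was 0.57, 0.32, 0.44, 0.48, 0.91 and 0.86 for numbers 1 to 6. It was above 0 in every number, and it averaged 0.89 in numbers 5 and 6 against 0.45 in numbers 1 to 4. The same difference for CHLM was −0.04, 0.17, 0.24, 0.07, 0.56 and 0.51. It averaged 0.54 in numbers 5 and 6 and 0.11 in numbers 1 to 4. As deposited, CHLM was lower in *psae1* in numbers 1 to 4 and higher in 5 and 6, while HEMA3 was higher in all 6. Without numbers 5 and 6, HEMA3 was at 0.45 and kept its call (limma adjusted p = 0.011, with 328 of 3275 probes called higher), and CHLM was at 0.11 without one (0.31). The *psae1* samples 5 and 6 also had the lowest summed intensities of the 12, 3468 and 3436.

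**Figure D4:**
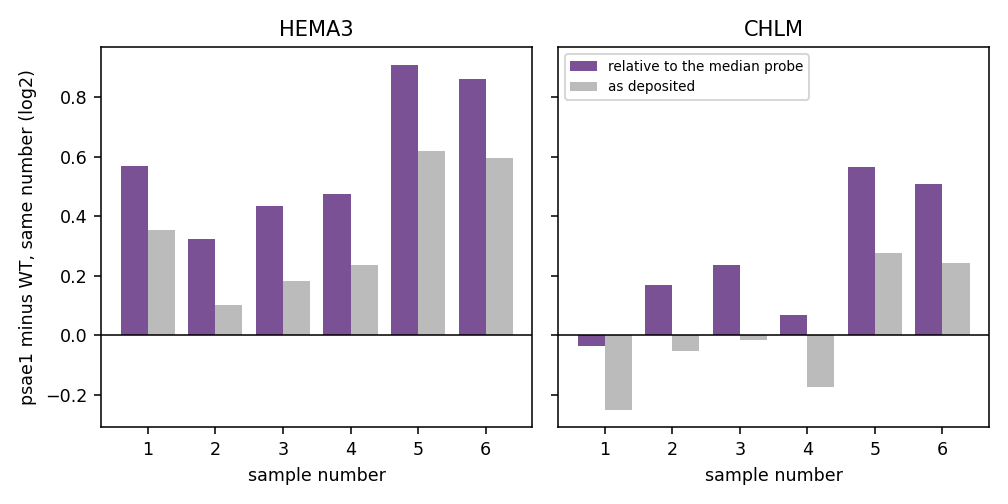
Difference between same-numbered samples, *psae1* minus WT on the log2 scale, for HEMA3 and CHLM, relative to the median probe and as deposited. Bars start at 0. The centred bars are tallest in numbers 5 and 6 for both genes (0.91 and 0.86 for HEMA3, 0.56 and 0.51 for CHLM).

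The spread of both genes within a genotype was compared with that of probes near them in number, since probe numbers may follow the array. The deviations of HEMA3 from its genotype mean followed the median deviation of 19 measured probes among the 10 on either side, with r = 0.96 over the 12 samples. For CHLM and its 20 near probes r was 0.68. Over 3257 probes the median of this r was 0.62, with HEMA3 at the 99.5 percentile and CHLM at the 58.3. These r values are descriptions, since numbers deviated together in pairs. The near probes of HEMA3 had a median centred difference of 0.04, with a range of −0.51 to 0.45, and 14 of the 19 were above 0. HEMA3 stood at 0.60, with the caveat that it had been picked out for its rise. Those of CHLM had a median of 0.07 and a range of −0.21 to 0.76, with 13 of the 20 above 0 and CHLM at 0.25. The median centred difference over all 3279 tested probes was 0.01, and the share of them above 0 was not counted. The part of place on the array in either genotype difference was not tested.

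The measured probes nearest to HEMA3 differed between the genotypes in either direction. Probe 1994, with no gene listed, had a mean deposited intensity of 0.923 in *psae1* and 1.57 in WT, with a centred difference of −0.51. AT2G37000, on probe 1996, had 0.358 in *psae1* and 0.365 in WT, with a centred difference of 0.24. Probe 1993 was at 0.07 and probe 1999 at 0.37 in centred difference. All 4 had their highest same-number differences in numbers 5 and 6, as HEMA3 did, with 0.75 and 0.55 for AT2G37000, 0.63 and 0.53 for probe 1999, 0.33 and 0.18 for probe 1993, and −0.10 in both for probe 1994. Beside CHLM, probes 2086, 2090, 2095 and 2096 were at −0.00, 0.07, −0.15 and 0.09. Of these, 2090, 2095 and 2096 had their highest same-number differences in numbers 5 and 6, as CHLM did, with 0.41 and 0.43 for probe 2090 and 0.48 and 0.45 for probe 2096. Probes further away in number also had their highest there, among them AT2G26110, AT5G59250, SBPASE and NTRC. In contrast, LHB1B2, SIRB and AT5G63290 had their lowest in numbers 5 and 6. The share over all probes was not counted, so this pattern is not shown to be particular to near probes.

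**Figure D5:**
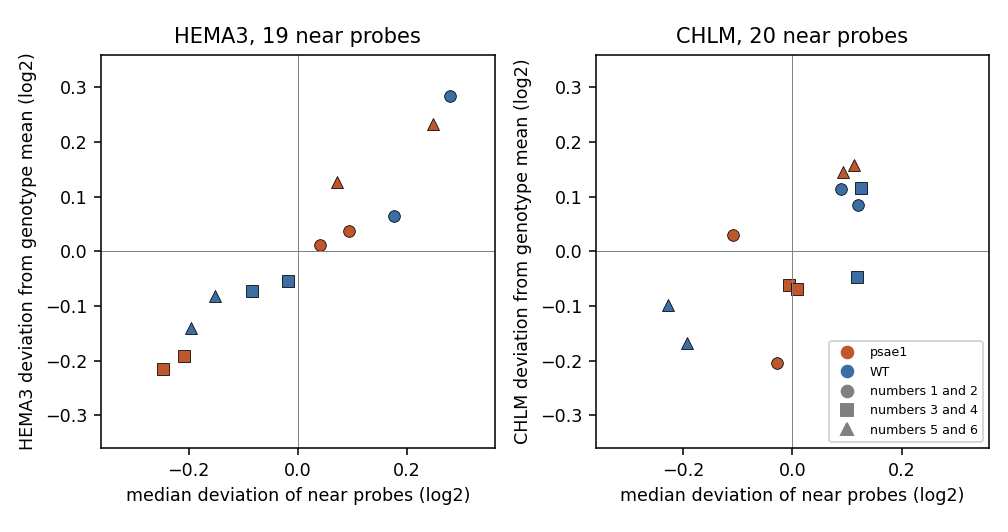
Deviation of HEMA3 (left) and CHLM (right) from the genotype mean on the centred log2 scale, against the median deviation of measured probes within 10 places in probe number. Each point is a sample, with colour for genotype and shape for the pair of numbers. The points lie along a line for HEMA3 (r = 0.96) and more loosely for CHLM (r = 0.68).

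When a running median over 21 probes, a window chosen after seeing the data, was taken from each sample, the standard error of HEMA3 was 0.04 in place of 0.09. Its difference was 0.44, and it passed over 12 samples (limma adjusted p = 1.2e-05, 12.8% of probes called higher) and on 3 averages per genotype (0.020, 3.42% called higher). With the wider window of 51 probes it was at 0.49, and passed over 12 samples (limma adjusted p = 0.0016, 12.7% called higher) but not on the averages (0.069, 3.02% called higher). CHLM was at 0.13 and 0.15 over 12 samples with these windows and did not pass (limma adjusted p = 0.14 and 0.057). The ratio of HEMA3 to CHLM remained higher in *psae1*, by 0.32 and 0.34 (exact permutation p = 0.0022 and 0.0043).

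Within each genotype HEMA3 and CHLM varied together, with r = 0.60 over the 6 *psae1* samples and r = 0.64 over the 6 WT samples, whose numbers deviated together in pairs, so no test is given. Over all 12 samples, of 649 other single-gene probes, CHLM ranked 28 in likeness to HEMA3 and HEMA3 ranked 19 in likeness to CHLM (r = 0.84, genotype difference included). That r is on the centred scale, as are the others here. On deposited log2 values the r of HEMA3 and CHLM over the 12 samples was 0.37. Most like HEMA3 were AT2G26110, AT2G39360 and AILP1, with r of 0.94, 0.93 and 0.91. With the genotype means taken out, r was 0.70, 0.82 and 0.48, so the likeness of AILP1 lay more in the genotype difference. Most like CHLM were AT4G34310, AT5G59250 and SBPASE, with r of 0.96, 0.94 and 0.91, and 0.91, 0.90 and 0.85 with genotype means taken out. SBPASE encodes sedoheptulose bisphosphatase of the Calvin cycle, and its centred difference was 0.21.

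Of a list of 51 tetrapyrrole genes, all matched in the gene table, 4 had a single-gene probe and could be tested. HEMA3 and CHLM were higher, AT5G63290 was lower and SIRB was not called, where 11.9% of all tested probes were higher and 10.9% lower. With the correlation within number pairs estimated as a random block, which called 4.12% of probes higher and 1.65% lower, HEMA3 kept its call (limma adjusted p = 0.013). CHLM (limma adjusted p = 0.24) and AT5G63290 (0.16) lost theirs. The median of the 4 was 0.10, against 0.01 over all tested probes. HEMA3, picked out for its rise, and CHLM are themselves among these 4. SIRB and AT5G63290 lay below 0, at −0.05 and −0.30 in centred difference, so the median does not describe the list apart from HEMA3 and CHLM. SIRB encodes sirohydrochlorin ferrochelatase, which inserts iron in the last step of siroheme synthesis, a branch that leaves the pathway before protoporphyrin IX. Its deposited intensity was 0.304, 0.302, 0.338, 0.381, 0.257 and 0.220 in *psae1* samples 1 to 6, against 0.307, 0.319, 0.399, 0.398, 0.349 and 0.417 in WT samples 1 to 6. The genotypes overlapped in numbers 1 to 4 and parted in 5 and 6. The centred difference of SIRB was −0.05 ± 0.12 (SE, n = 6 each, limma adjusted p = 0.81), with a 95% interval of −0.30 to 0.21.

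AT5G63290, which the gene table holds without a symbol, ran against HEMA3 and CHLM. It had a deposited intensity of 0.869, 0.917, 0.947, 0.965, 0.672 and 0.753 in *psae1* samples 1 to 6, against 1.15, 1.09, 1.33, 1.24, 1.31 and 1.34 in WT samples 1 to 6. As deposited every *psae1* sample lay below every WT sample, which held for 26.6% of the 3257 probes measured in all samples. Centred, it fell by 0.30 ± 0.09 (SE, n = 6 each, limma adjusted p = 0.025), where 10.9% of probes were called lower, and *psae1* 3 and 4 lay within the WT range. It did not pass on 3 averages per genotype (limma adjusted p = 0.26), and with the running median over 51 probes taken out it was at −0.10 and did not pass (limma adjusted p = 0.23).

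A further 2 probes each listed 2 genes of the tetrapyrrole list and no other gene, so no gene is named from them. Probe 2077 had a mean deposited intensity of 0.945 ± 0.0758 in *psae1* and 0.918 ± 0.0752 in WT (SD, n = 6 each). Its centred difference was 0.29 (limma adjusted p = 0.018), close to that of CHLM, and like CHLM it was highest in numbers 5 and 6. Probe 2801 had 0.239 ± 0.0171 in *psae1* and 0.323 ± 0.0273 in WT (SD, n = 6 each), and its centred difference was −0.18 (limma adjusted p = 0.092).

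HEMA1 and HEMA2, the other genes for glutamyl-tRNA reductase, had no single-gene probe and were not analysed here. The HEMA3 probe's sequence was not used here, so whether that probe also takes up RNA of HEMA1 or HEMA2 was not tested. Of 15 light and plastid signalling genes known to act on the pathway, NTRC alone could be tested. NTRC is a plastid thioredoxin reductase that keeps CHLM protein in its active form. Its mean deposited intensity was 0.618 ± 0.0618 in *psae1* and 0.693 ± 0.112 in WT (SD, n = 6 each), and its centred difference of 0.09 was not called (limma adjusted p = 0.54). None of 12 genes for the methyl donor and for glutamyl-tRNA outside the pathway had a single-gene probe. Among 16 markers of leaf, root, flower and seed, the leaf gene LHB1B2, for a light-harvesting protein that binds chlorophyll, alone had such a probe. Its deposited intensity ran from 21.4 to 24.1 in *psae1* and from 17.0 to 21.3 in WT. Its centred difference was 0.51 ± 0.07 (SE, n = 6 each, limma adjusted p = 0.00031), near that of HEMA3. Quantile normalization left it at 0.07 and cyclic loess at 0.08, without a call (limma adjusted p = 0.50 and 0.40), and it did not pass on 3 averages per genotype (0.055). Its part in the differences of HEMA3 and CHLM was not tested. Markers of other tissues were not analysed here, so a share of other tissues in either genotype was not tested, and fewer cells of a type cannot be told apart from less RNA per cell.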

How the data were processed

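The deposited table holds a linear intensity per probe for each of 12 samples, 6 *psae1* and 6 WT by their titles. Scanner, background correction and scaling by the authors were not given in the sources used here. Per the deposited values no intensity was below 0, and the number of arrays limits the precision. Genes were named from the platform annotation (692 single-gene probes, 870 with several genes, 1877 not listed) and the TAIR10.1 gene table, used for names only. Intensities were taken to log2 with 0 as missing, and since sample medians differed by 0.32, over the limit of 0.1, each sample was centred on its median. Probes with at least 3 values per genotype were fitted with lmFit and eBayes of limma 3.58.1 (R 4.3.3), two-sided, without a block, with Benjamini-Hochberg adjustment over 3279 probes. The ratio of HEMA3 to CHLM was tested by exact permutation (scipy 1.17.1). The fit was also run on simulated data, but no result of that run is given here. It is no support for the p-values over 12 samples. Other scalings, pseudocounts, filters, blocks, averages, drift removal and omissions were tried.

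Deviations of same-numbered samples from their genotype means correlated across the genotypes, with r from 0.23 to 0.42 over 3257 probes. Different numbers were not compared across the genotypes, so whether the numbers pair the samples was not tested. The labels do not say so. Named were HEMA3 and CHLM, tested members of the pathway, regulator and substrate lists, the 3 single-gene probes most like each gene, and the nearest 2 probes on either side. The members and lists were chosen with earlier results of these data known.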

Additional observations from a re-analysis of the deposited data

Results flagged for a closer look

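Values of 6 samples of a genotype were examined for a sample far from the other 5 in 32 sets, and 1 set held such a sample. Chance gives about 1 in 20 where values are independent, which numbers that deviate together are not. The summed intensity of WT 5 was 3678, the highest of the 6 WT samples, against 3611 to 3631 in the others, a gap of 0.708 of the range. HEMA3 and CHLM had no such sample in either genotype, nor did their ratio. Without WT 5, HEMA3 was at 0.58 (limma adjusted p = 0.0021), CHLM was at 0.22 and lost its call (0.077), and the ratio differed by 0.36 (exact permutation p = 0.0043).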

How the results depend on the processing

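HEMA3 was higher in *psae1* in all 35 alternatives run, and 6 of them ended its call. These were averages of numbers 1 and 2, 3 and 4, and 5 and 6 at 0.60 (limma adjusted p = 0.056), such averages as deposited at 0.35 (0.085), after quantile normalization at 0.49 (0.10) and with drift over 51 probes removed at 0.49 (0.069), numbers 1, 3 and 5 alone at 0.64 (0.058) and numbers 2, 4 and 6 alone at 0.55 (0.11). These fits hold 3 values per genotype. CHLM kept its sign and lost its call in 24 of 35. With 12 samples it was at 0.0038 as deposited, 0.22 after quantile and 0.23 after cyclic loess normalization, 0.25 with the replicate block (limma adjusted p = 0.063) or a random block (0.24), 0.15 and 0.13 with drift over 51 and 21 probes removed, and 0.17 with array weights. On averages it was at 0.25, also with the replicate block, at 0.0038 as deposited, 0.22 after quantile normalization, and 0.15 and 0.13 with drift removed. It was at 0.30 without numbers 3 and 4, 0.11 without 5 and 6, 0.25 in numbers 1, 3 and 5 and 0.25 in 2, 4 and 6. Omission of single samples gave 0.55 to 0.65 for HEMA3, with 0 calls lost, and 0.22 to 0.29 for CHLM, with its call lost without *psae1* 2, 5 or 6 or WT 3, 5 or 6 (limma adjusted p up to 0.077).

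The ratio of HEMA3 to CHLM was higher in *psae1* by 0.24 to 0.38 in all 23 alternatives run, with 0.30 to 0.38 when single samples were left out. It stayed past the threshold except on averages, at 0.34 (exact permutation p = 0.10), where no p can. The tetrapyrrole list had 2 genes higher and 1 lower in the reported fit, with 0 to 2 higher and 0 to 1 lower elsewhere; omission of single samples gave 1 to 2 higher and 0 to 1 lower. AT5G63290 lost its call in 16 of 35. SIRB, never called, was above 0 with a pseudocount of 0.5 (0.021), with array weights (0.078), without numbers 5 and 6 (0.13) and in numbers 1, 3 and 5 (0.021), and ran from −0.11 to 0.030 over omissions of single samples. NTRC was below 0 as deposited (−0.16) and with drift over 51 or 21 probes removed (−0.059 and −0.032), over 12 samples and on averages alike, and without numbers 5 and 6 (−0.024).

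Over all probes 748 changed, 391 higher and 357 lower. As deposited there were 1745, 111 higher and 1634 lower, after quantile normalization 243 higher and 349 lower, and with a pseudocount of 0.5 471 higher and 271 lower. Averages gave 76, with the replicate block 229, after quantile normalization 57, and with drift over 51 or 21 probes removed 174 and 197. The random block gave 189, omission of numbers 1 and 2 gave 392, numbers 1, 3 and 5 gave 47 and numbers 2, 4 and 6 gave 28. Omission of single samples gave 611 to 762, and the replicate block over 12 samples 931. The causes of these differences in count were not tested. Drift over 21 probes, and drift removal on averages, were chosen after seeing the data. No array had a measure of signal over background, so dim values could not be judged against it.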
